A study of Mus musculus with 4 samples.

Results

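The genes described are the matrix metalloproteinases (Mmp), their tissue inhibitors (Timp), and the Adam and Adamts metalloproteinases, measured by RNA sequencing in MC38 tumours of mice given vanoxerine or saline. Members were all genes whose symbol is Mmp, Timp, Adam or Adamts followed by a digit, which gave 79 of the 54115 genes in the annotation. They comprised 23 Mmp, 4 Timp, 33 Adam and 19 Adamts genes. MC38 is a mouse colon adenocarcinoma cell line, and vanoxerine is known as a blocker of dopamine reuptake. The vanoxerine group was 2 primary tumours from mice given 10 daily intraperitoneal injections at 25 mg/kg, and the saline group was 2 such tumours from mice given 10 daily injections of saline. All 4 libraries came from tumours of the injected line, with whatever host cells the tumours held. The sources used here do not give the strain, sex or age of the mice, nor the injection site of the cells. The labels do not say whether the 2 tumours of a group came from separate mice, so p-values reflect only how far these libraries differ from each other, which may in part be technical.

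MMPs are zinc-dependent proteases that cut collagens, other matrix proteins and signalling proteins, and most are secreted as inactive precursors. TIMPs bind the active site of these enzymes and block them. ADAMs are mostly membrane proteins that release the outer part of other membrane proteins, and ADAMTS enzymes are secreted proteases that process procollagens and cut proteoglycans. In tumours, fibroblasts, macrophages, neutrophils and cancer cells are all known to make members of these families.

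Several of the secreted MMP genes that lie side by side on mouse chromosome 9 are known targets of AP-1, a transcription factor that binds the letters TGAGTCA, read as TGACTCA on the other strand. The stretches below are the 100 bases before the start of each of the 6 genes of this group that were tested, on the plus strand, 5′ to 3′, from RefSeq on GRCm38.p6. They are shown because these neighbours differed in how they moved between the groups. Capitals mark the AP-1 letters and the TATA box letters TATAAA, read as TTTATA on the other strand, and no marked stretches overlap. Mmp12 has 2 annotated starts.
Mmp13 (chr9:7272414-7272513): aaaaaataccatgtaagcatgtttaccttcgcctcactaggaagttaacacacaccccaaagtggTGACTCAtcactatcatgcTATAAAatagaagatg
Mmp12 first start (chr9:7344297-7344396): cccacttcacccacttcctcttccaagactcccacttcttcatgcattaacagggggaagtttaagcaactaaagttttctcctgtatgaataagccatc
Mmp12 second start (chr9:7347274-7347373): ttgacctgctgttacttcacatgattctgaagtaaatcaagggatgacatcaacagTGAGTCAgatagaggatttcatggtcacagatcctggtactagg
Mmp3 (chr9:7445722-7445821): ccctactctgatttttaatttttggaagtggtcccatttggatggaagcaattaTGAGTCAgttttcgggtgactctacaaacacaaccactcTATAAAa
Mmp10 (chr9:7502242-7502341): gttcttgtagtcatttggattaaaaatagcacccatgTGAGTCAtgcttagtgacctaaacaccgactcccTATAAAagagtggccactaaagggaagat
Mmp8 (chr9:7558329-7558428): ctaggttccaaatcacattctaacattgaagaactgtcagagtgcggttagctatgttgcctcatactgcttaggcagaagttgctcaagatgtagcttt
Mmp27 (chr9:7571296-7571395): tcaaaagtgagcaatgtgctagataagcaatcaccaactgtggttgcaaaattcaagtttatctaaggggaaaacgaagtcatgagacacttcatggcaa

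The AP-1 letters began 35 bases before the start of Mmp13, 46 before that of Mmp3, 63 before that of Mmp10 and 44 before the second start of Mmp12. Neither motif lay in the stretch of Mmp8, of Mmp27 or of the first Mmp12 start. Over windows of 300 bases (250 before and 50 after each start), the AP-1 letters lay in 5.20% of 32851 windows of all genes. They lay in 10 of the 54 windows of members. These belonged to 10 of the 49 members with a window, of which 7 were neighbours in the chromosome 9 group. Those members were Mmp1a, Mmp1b, Mmp3, Mmp7, Mmp10, Mmp12, Mmp13, Adam19, Adam1b and Adam29. The TATA letters lay in 13.6% of all windows and in 14 of the 54 windows of members. These belonged to 14 of the 49 members, among them 9 of the 10 members of the chromosome 9 group. No windows were used for Mmp2, Mmp9 and Mmp19.

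Each library held between 67289273 and 75748162 estimated reads, and the levels below are CPM, counts scaled to the library total with TMM factors, unless TPM, which is also scaled to transcript length, is named. Of the 79 members, 66 had at least 1 read and 47 passed the low-count filter and were tested. No read was assigned to 13 members, among them the collagenase gene Mmp1a, the matrilysin gene Mmp7 and 11 Adam genes (Adam6a, Adam7, Adam20, Adam21, Adam24, Adam25, Adam26a, Adam26b, Adam29, Adam34 and Adam39). For these, 0 of 283876287 reads allows a level of up to 0.0106 CPM, which covers counting error only. The other 19 untested members had between 1 and 41 reads over all 4 libraries. Adamts8 had the 41 reads, and the inhibitor gene Timp4 had 5.

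In vanoxerine tumours 14 members rose and 11 fell, at a Benjamini-Hochberg adjusted p under 0.05 in edgeR's quasi-likelihood test (13 and 6 with limma on log2(TPM + 1), and 12 and 6 without vanoxerine 1 or without vanoxerine 2). These 25 are 53.2% of the 47 tested members, while 36.9% of all 18758 genes tested were called (21.0% higher and 15.9% lower). Among the called members, 7 rose and 7 fell by 1 or more on the log2 scale, and 8.77% of all genes tested passed both limits. The 2 libraries of a group did not overlap those of the other for 40 of the 47 members, of which 21 were above and 19 below, and the share among all genes tested was 70.7%. The median log2 fold change of the tested members was 0.11, beside -0.01 over all genes tested. By level, 16 of 21 members with a mean of at least 10 CPM were called, and 9 of 16 between 1 and 10 CPM. The shares of all genes called at these levels were not computed, so nothing particular to the members is read from this. Of the 10 members under 1 CPM edgeR called 0, DESeq2 and limma-voom called 0, and 2 had an unadjusted p under 0.05.

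The called members differed in direction between the families. The share called was 73.3% of tested Mmp, 40.0% of Adam and 35.7% of Adamts genes, and all 3 tested Timp genes were called. Over all genes tested 36.9% were called, 21.0% higher and 15.9% lower, so the Adam and Adamts shares were near that of all genes. Among 15 tested Mmp genes, 7 rose and 4 fell, and among the 3 tested Timp genes 1 rose and 2 fell. Of 15 tested Adam genes 6 rose (Adam15 in counts but not per transcript length) and 0 fell in edgeR. Among the Adam genes, 1 (Adam12) was lower at an unadjusted p under 0.05, DESeq2 and limma-voom called 0 lower, and limma on log2(TPM + 1) called 1 lower (Adam3). Of 14 tested Adamts genes 5 fell (Adamts1 was at 0.06 on log2(TPM + 1), where the median of all genes was 0.13) and 0 rose in edgeR. On the higher side, 2 of them (Adamts10 and Adamts14) had an unadjusted p under 0.05, DESeq2 called Adamts10, limma-voom called 0, and limma on log2(TPM + 1) called Adamts14.

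**Figure D1:**
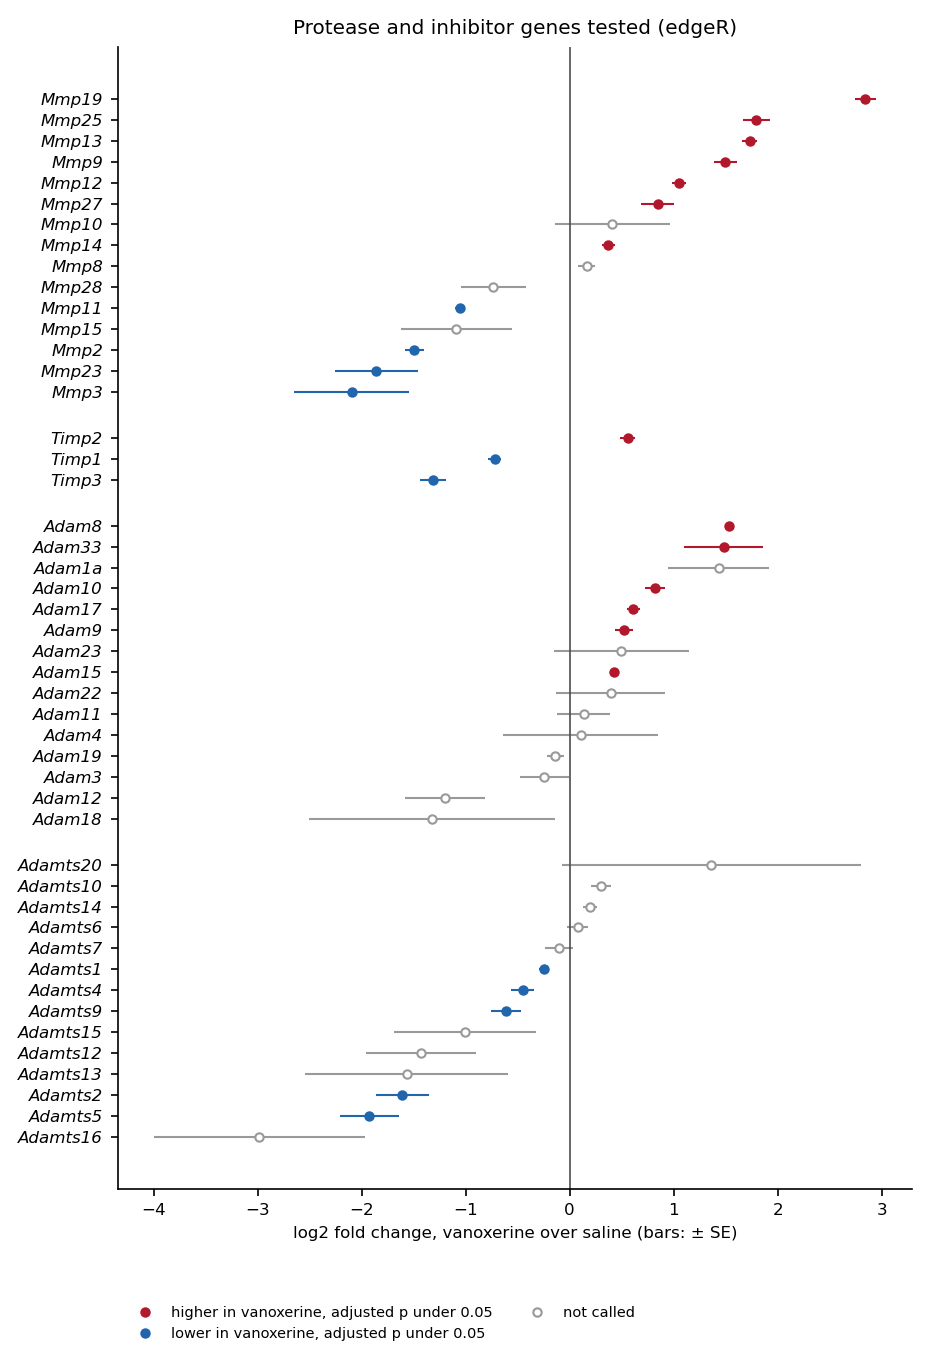
Log2 fold change (x axis, vanoxerine over saline, edgeR) of each of the 47 tested members, grouped by family and sorted by size, with bars of ± SE; filled red points were called higher, filled blue points lower, and open points were not called. Mmp19 lies farthest right at 2.84, all 6 called Adam points are to the right of 0 and all 5 called Adamts points to the left; Adam15 is at -0.25 with a transcript length offset, and Adamts1 at 0.06 on log2(TPM + 1), where the median of all genes is 0.13.

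Several cell types differed in the same libraries, and the part of these differences in the values below was not tested. In bulk tissue, fewer cells of a type cannot be told apart from less RNA per cell. All 7 macrophage markers rose, and their summed level was 2280 and 2287 CPM in vanoxerine tumours, against 503 and 534 CPM in saline tumours. Of 7 tested neutrophil markers 6 fell, with sums of 359 and 354 CPM in vanoxerine tumours, against 723 and 760 CPM in saline tumours. The granule genes of that list (Camp, Ltf, Mpo, Elane, Ngp) were all under 10 CPM, and S100a8 and S100a9 made up most of its sum. Of 8 fibroblast markers 7 fell and 1 (Thy1) rose, with sums of 550 and 553 CPM in vanoxerine tumours, against 718 and 734 CPM in saline tumours. Endothelial markers summed to 42.6 and 45.7 CPM in vanoxerine tumours, against 96.7 and 92.2 CPM in saline tumours (6 of 7 fell). All 4 mast cell markers rose, with sums of 68.8 and 66.8 CPM in vanoxerine tumours, against 7.29 and 8.23 CPM in saline tumours. Of the epithelial markers, 3 of 6 tested rose, with sums of 35.6 and 37.2 CPM in vanoxerine tumours, against 16.9 and 19.7 CPM in saline tumours. The intestinal markers among them were near absent, since Cdx2 had 0 reads and Krt20 and Vil1 were under 1 CPM in every library. T cell markers (1 of 5 fell) summed to 196 and 190 CPM in vanoxerine tumours, against 214 and 230 CPM in saline tumours. B cell markers (1 of 4 rose) summed to 18.7 and 18.8 CPM in vanoxerine tumours, against 9.23 and 8.76 CPM in saline tumours. Skeletal muscle markers (1 of 5 rose and 1 fell) summed to 27.2 and 24.0 CPM in vanoxerine tumours, against 37.1 and 34.9 CPM in saline tumours.

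The gelatinases, which cut denatured collagen and basement membrane collagen, moved in opposite directions. Mmp9 (chr2:164940780-164955850, plus strand, GRCm38) had 66.9 and 73.2 CPM in vanoxerine tumours, against 22.1 and 27.5 CPM in saline tumours. Both vanoxerine libraries were above both saline libraries, by a log2 fold change of 1.50 ± 0.11 (SE), which is 2.82-fold (adjusted p = 2.82e-04, edgeR). Mmp2 (chr8:92827291-92853420, plus strand) had 7.74 and 7.97 CPM in vanoxerine tumours, against 22.1 and 22.1 CPM in saline tumours. The groups did not overlap, and the log2 fold change was -1.49 ± 0.09 (adjusted p = 1.30e-04). Set per length, the ratio of Mmp9 to Mmp2 TPM was 7.57 and 9.89 in vanoxerine tumours, against 0.799 and 1.21 in saline tumours. This ratio counts all transcripts. The protein-coding transcripts of Mmp9 had 28.4 and 33.6 TPM in vanoxerine tumours, against 7.61 and 8.16 TPM in saline tumours. Those of Mmp2 had 1.96 and 2.11 TPM in vanoxerine tumours, against 8.31 and 8.55 TPM in saline tumours.

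The collagenases cut fibrillar collagen. Mmp13 (chr9:7272514-7283331, plus strand), called collagenase 3, had 151 and 155 CPM in vanoxerine tumours, against 43.5 and 48.7 CPM in saline tumours. It rose 3.32-fold with no overlap of the groups (log2 fold change 1.73 ± 0.07, adjusted p = 3.43e-05, edgeR). Mmp8, the neutrophil collagenase, had 28.3 and 31.2 CPM in vanoxerine tumours, against 25.9 and 27.2 CPM in saline tumours. The groups did not overlap, but the difference of 0.17 ± 0.08 on the log2 scale did not pass the test (adjusted p = 0.165, and 0.0266 without saline 2). Mmp1b had 2 reads in all.

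The macrophage elastase gene Mmp12 (chr9:7344381-7369499, plus strand) had 120 and 119 CPM in vanoxerine tumours, against 60.9 and 54.3 CPM in saline tumours. Both vanoxerine libraries lay above the saline libraries, by a log2 fold change of 1.05 ± 0.07 (adjusted p = 1.61e-04, edgeR). Over all libraries 43.1% of its reads were assigned to protein-coding transcripts. Most of the others went to 1 transcript annotated as subject to nonsense-mediated decay, which held 43.2% and 37.7% of the gene's TPM in vanoxerine tumours, against 49.2% and 39.8% in saline tumours, so that these shares overlapped between the groups.

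The stromelysins differed in level and in the strength of their calls. Mmp11 (chr10:75923222-75936496, minus strand), stromelysin 3, a product of tumour stroma in human carcinomas, had 40.9 and 40.2 CPM in vanoxerine tumours, against 85.5 and 83.2 CPM in saline tumours. It fell 2.08-fold with little spread in either group (log2 fold change -1.06 ± 0.05, adjusted p = 6.11e-05, edgeR). In vanoxerine tumours 1 transcript annotated as subject to nonsense-mediated decay held 51.9% and 60.1% of Mmp11 TPM, against 62.2% and 63.5% in saline tumours. The protein-coding transcripts of Mmp11 had 17.6 and 17.1 TPM in vanoxerine tumours, against 32.3 and 33.6 TPM in saline tumours. Chchd10 shares 5.58% of the Mmp11 exon bases on the other strand, and its own log2 fold change was -1.12; since it is not known whether counting used the strand, reads in that shared part cannot be assigned with certainty. Mmp3, stromelysin 1, had 0.390 and 0.440 CPM in vanoxerine tumours, against 2.59 and 0.968 CPM in saline tumours. Its saline libraries were far apart, although both were above the vanoxerine libraries (log2 fold change -2.10 ± 0.55, adjusted p = 0.0299). The Mmp3 call was lost without vanoxerine 1 (adjusted p = 0.135), without vanoxerine 2 (0.118) and without saline 1 (0.0598, log2 fold change -1.22). It was also lost with limma-voom (0.0852), with a transcript length offset (0.0684) and on log2(TPM + 1) (0.168, log2 fold change -0.57). Mmp10, stromelysin 2, had 0.477 and 0.653 CPM in vanoxerine tumours, against 0.510 and 0.337 CPM in saline tumours, and the groups overlapped (adjusted p = 0.611).

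Of the MMPs grouped here as membrane-bound (Mmp14, Mmp15, Mmp16, Mmp17, Mmp24 and Mmp25), the 2 with a call rose. Mmp23, given below with the remaining MMPs, was called lower, so no common direction of membrane-anchored MMPs is read from this. Mmp25 (chr17:23628311-23645277, minus strand), a membrane-anchored MMP known from human leukocytes, had 12.0 and 12.3 CPM in vanoxerine tumours, against 3.52 and 3.47 CPM in saline tumours. The libraries of each group were close together, and the groups were 3.47-fold apart (log2 fold change 1.80 ± 0.13, adjusted p = 2.20e-04, edgeR). Mmp14 (chr14:54431612-54445364, plus strand), which activates the Mmp2 precursor at the cell surface, had 189 and 180 CPM in vanoxerine tumours, against 135 and 150 CPM in saline tumours. It rose 1.29-fold (log2 fold change 0.37 ± 0.06, adjusted p = 0.00613), and the adjusted p was 0.0643 without vanoxerine 1. Mmp15 had 0.867 and 0.759 CPM in vanoxerine tumours, against 2.55 and 0.912 CPM in saline tumours, and was not called (adjusted p = 0.168), although its adjusted p was 1.86e-04 without saline 2. Mmp16, Mmp17 and Mmp24 had 13, 17 and 21 reads in all.

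Of the remaining MMPs, Mmp19 (chr10:128790910-128800824, plus strand), a secreted MMP that cuts basement membrane proteins, had 97.9 and 90.4 CPM in vanoxerine tumours, against 11.9 and 14.4 CPM in saline tumours. Every vanoxerine library was far above every saline library, and the 7.17-fold rise was the largest among the called members (log2 fold change 2.84 ± 0.10, adjusted p = 2.52e-05, edgeR). Tmem198b shares 22.3% of the Mmp19 exon bases on the other strand, and its own log2 fold change was -0.07 (adjusted p = 0.624). Mmp27 had 6.59 and 7.38 CPM in vanoxerine tumours, against 3.93 and 3.83 CPM in saline tumours. It rose 1.80-fold without overlap (log2 fold change 0.85 ± 0.16, adjusted p = 0.00865), and its adjusted p was 0.0966 without vanoxerine 2. Mmp23 had 0.491 and 0.653 CPM in vanoxerine tumours, against 1.58 and 2.57 CPM in saline tumours. It fell by a log2 fold change of -1.86 ± 0.40 (adjusted p = 0.0144), a call lost without vanoxerine 1 (adjusted p = 0.0992) or vanoxerine 2 (0.0605) and on protein-coding transcripts alone (0.303) or log2(TPM + 1) (0.0581). Mmp28, whose product is epilysin, had 0.910 and 1.05 CPM in vanoxerine tumours, against 1.60 and 1.66 CPM in saline tumours, and was not called (adjusted p = 0.121).

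**Figure D2:**
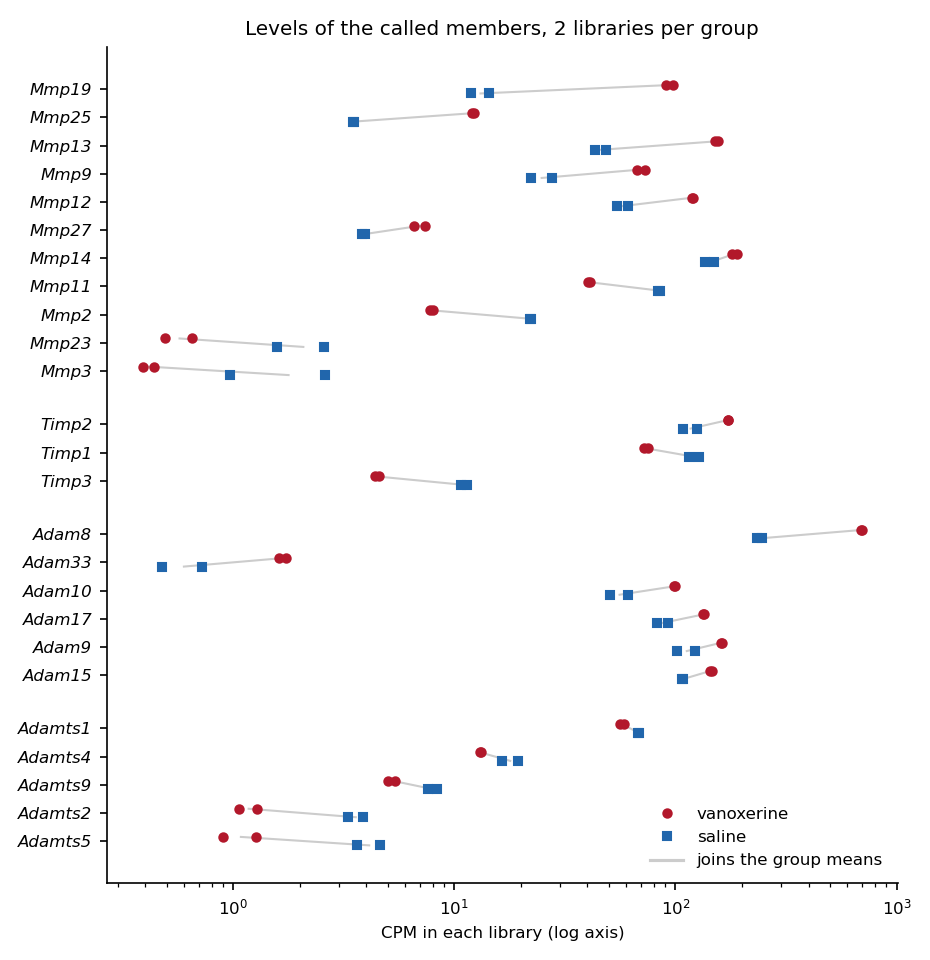
CPM of the 25 called members in each library on a log axis, with circles for the 2 vanoxerine libraries, squares for the 2 saline libraries and a grey line joining the group means. The circles lie apart from the squares for all 25 members, which were picked by their calls in these same libraries. Nothing more is read from that, and the groups did not overlap for 70.7% of all genes tested. Mmp19 has the widest gap, 97.9 and 90.4 CPM against 11.9 and 14.4 CPM.

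The inhibitors did not move as one. Timp1 (chrX:20870166-20874735, plus strand), a secreted inhibitor that binds the Mmp9 precursor, had 74.9 and 72.2 CPM in vanoxerine tumours, against 115 and 127 CPM in saline tumours. Timp1 fell 1.65-fold with both vanoxerine libraries below both saline libraries (log2 fold change -0.72 ± 0.06, adjusted p = 5.46e-04, edgeR). Timp2 (chr11:118301069-118355740, minus strand), which takes part in activation of the Mmp2 precursor by Mmp14, had 172 and 172 CPM in vanoxerine tumours, against 108 and 126 CPM in saline tumours. It rose 1.47-fold (log2 fold change 0.56 ± 0.08, adjusted p = 0.00261), and the call was lost with a transcript length offset (adjusted p = 0.0725). Timp3 (chr10:86300372-86349506, plus strand), which is held in the matrix and also inhibits ADAM17 and aggrecanases, had 4.38 and 4.55 CPM in vanoxerine tumours, against 10.8 and 11.5 CPM in saline tumours. The groups were 2.49-fold apart without overlap (log2 fold change -1.31 ± 0.13, adjusted p = 7.56e-04). Its exons share 21.3% of their bases with Syn3 on the other strand, which had between 5 and 40 reads in a library. The ratio of Timp2 to Timp1 TPM was 1.10 and 1.14 in vanoxerine tumours, against 0.467 and 0.548 in saline tumours.

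Among the Adam genes with a known shedding function, 6 of 8 tested rose and 0 were called lower in edgeR as reported, DESeq2 or limma-voom. Of all genes tested, 21.0% were called higher and 15.9% lower. The 6 include Adam15, which rose in counts but not per transcript length. They also include Adam33, whose call was lost in 4 of 15 alternatives. Adam8 (chr7:139978932-139992562, minus strand), an ADAM of myeloid cells, had 697 and 694 CPM in vanoxerine tumours, against 233 and 246 CPM in saline tumours. It rose 2.90-fold with the smallest adjusted p of the members (log2 fold change 1.54 ± 0.04, adjusted p = 1.36e-05, edgeR). Adam10 (chr9:70678997-70780229, plus strand), the sheddase of Notch receptors, had 98.4 and 99.4 CPM in vanoxerine tumours, against 61.3 and 50.5 CPM in saline tumours. The vanoxerine libraries were both higher, by a log2 fold change of 0.82 ± 0.09 (adjusted p = 0.00132). Adam17 (chr12:21323509-21373632, minus strand), which releases TNF and ligands of the EGF receptor, had 133 and 134 CPM in vanoxerine tumours, against 92.1 and 82.9 CPM in saline tumours. It rose 1.53-fold (log2 fold change 0.61 ± 0.06, adjusted p = 9.23e-04), and the call was lost with a transcript length offset (adjusted p = 0.132) and on log2(TPM + 1) (0.0779).

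The other called Adam genes were Adam9, Adam15 and Adam33. Adam9, a widely made sheddase, had 163 and 161 CPM in vanoxerine tumours, against 123 and 102 CPM in saline tumours. It rose 1.44-fold without overlap (log2 fold change 0.52 ± 0.09, adjusted p = 0.00628, edgeR). Adam33 had 1.62 and 1.73 CPM in vanoxerine tumours, against 0.720 and 0.477 CPM in saline tumours. Its log2 fold change was 1.48 ± 0.38 (adjusted p = 0.0261), only 27.0% of its reads lay in protein-coding transcripts, and the adjusted p was 0.138 without vanoxerine 1, 0.173 without vanoxerine 2, 0.168 on protein-coding transcripts alone and 0.0660 with a transcript length offset. Adam12, an ADAM of mesenchymal cells, had 0.621 and 0.668 CPM in vanoxerine tumours, against 1.19 and 1.77 CPM in saline tumours, and was not called (adjusted p = 0.0545). Adam12 was called lower by edgeR with upper-quartile factors (adjusted p = 0.0371), with library totals (0.0482), when only genes averaging 1 CPM or more were tested (0.0276) and without saline 1 (0.00312). Adam19 had 21.1 and 22.4 CPM in vanoxerine tumours, against 23.3 and 24.5 CPM in saline tumours, and was not called (adjusted p = 0.236). Adam28 had 3 reads in all.

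Adam15 (chr3:89338542-89349996, minus strand), a membrane ADAM that also binds integrins, depended on how its transcripts were weighed. It had 143 and 146 CPM in vanoxerine tumours, against 108 and 107 CPM in saline tumours. The counts rose 1.35-fold (log2 fold change 0.43 ± 0.05, adjusted p = 9.96e-04, edgeR), while the log2 fold change was -0.25 with a transcript length offset (adjusted p = 0.135) and -0.01 on log2(TPM + 1) (0.932). Its protein-coding transcripts made up 47.6% and 40.6% of its TPM in vanoxerine tumours, against 24.8% and 24.1% in saline tumours. These coding transcripts summed to 40.4 and 40.6 TPM in vanoxerine tumours, against 23.2 and 22.3 TPM in saline tumours, with no overlap. A processed transcript named Adam15-212 held 0% and 27.8% of the gene's TPM in vanoxerine tumours, against 53.0% and 59.4% in saline tumours. The vanoxerine libraries differed widely from each other there, since another processed transcript, Adam15-209, held 37.2% in vanoxerine 1 and 7.23% in vanoxerine 2.

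Adam11, Adam22 and Adam23, of the nervous system and without protease activity, were not called, at adjusted p = 0.725, 0.612 and 0.603 (edgeR). On protein-coding transcripts alone Adam23 was called higher (adjusted p = 0.0186), with those transcripts at 0.0865 and 0.0575 TPM in vanoxerine tumours, against 0 TPM in both saline tumours. The ADAMs best known from testis or sperm were under 10 CPM. Adam3 had 3.44 and 5.16 CPM in vanoxerine tumours, against 4.83 and 5.36 CPM in saline tumours, and the groups overlapped (adjusted p = 0.471). Per length, Adam3 had 8.77 and 7.69 TPM in vanoxerine tumours, against 13.8 and 15.3 TPM in saline tumours, without overlap. It was called lower with a transcript length offset (log2 fold change -1.06, adjusted p = 0.0227) and on log2(TPM + 1) (-0.75, 0.0196). Adam1a had 1.95 and 2.25 CPM in vanoxerine tumours, against 1.11 and 0.435 CPM in saline tumours, and was not called (adjusted p = 0.0654, and 3.61e-05 and 0.0186 without saline 1 and without saline 2), with 24.0% of its exon bases shared with Mapkapk5 on the same strand. Adam4 and Adam18, tested at under 1 CPM, were not called (adjusted p = 0.929 and 0.439). The other genes of this kind had between 0 and 26 reads over all 4 libraries.

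The 5 called ADAMTS genes fell in counts, and 3 of them were under 10 CPM. Adamts2 (chr11:50602084-50807573, plus strand), which removes the N-terminal propeptide of fibrillar procollagens, had 1.29 and 1.06 CPM in vanoxerine tumours, against 3.31 and 3.86 CPM in saline tumours. It fell 3.05-fold (log2 fold change -1.61 ± 0.25, adjusted p = 0.00479, edgeR). Adamts14, which shares that function, had 67.3 and 67.7 CPM in vanoxerine tumours, against 55.7 and 62.0 CPM in saline tumours, and did not pass the test (log2 fold change 0.20 ± 0.07, adjusted p = 0.0598). Without saline 1 or saline 2 its adjusted p was 0.0459 and 3.80e-05. The third procollagen enzyme, Adamts3, had 3 reads.

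Of the enzymes that cut aggrecan or versican, Adamts5 (chr16:85856173-85901828, minus strand) had 1.27 and 0.896 CPM in vanoxerine tumours, against 3.64 and 4.60 CPM in saline tumours. Adamts5 fell 3.80-fold without overlap (log2 fold change -1.92 ± 0.29, adjusted p = 0.00383, edgeR), and the call was lost on log2(TPM + 1) (adjusted p = 0.0542), a scale that understates changes of low genes. Its neighbour Adamts1 (chr16:85793827-85803113, minus strand), 53060 bases away, had 56.3 and 58.6 CPM in vanoxerine tumours, against 68.7 and 67.7 CPM in saline tumours. The Adamts1 counts fell 1.19-fold (log2 fold change -0.25 ± 0.05, adjusted p = 0.0124, edgeR). Per length, Adamts1 had 12.65 and 13.12 TPM in vanoxerine tumours, against 12.61 and 12.04 TPM in saline tumours, so both vanoxerine libraries were above. Its log2 fold change was 0.06 on log2(TPM + 1), where the median of all genes was 0.13. The Adamts1 call was lost there (adjusted p = 0.624), with a transcript length offset (0.141) and without vanoxerine 1 (0.223) or vanoxerine 2 (0.154). Adamts9 had 5.01 and 5.39 CPM in vanoxerine tumours, against 7.59 and 8.32 CPM in saline tumours. It fell 1.53-fold (log2 fold change -0.61 ± 0.14, adjusted p = 0.0198), with adjusted p = 0.170 without vanoxerine 1, 0.113 without vanoxerine 2 and 0.106 on log2(TPM + 1). Adamts4 had 13.0 and 13.2 CPM in vanoxerine tumours, against 16.4 and 19.4 CPM in saline tumours. It fell 1.37-fold (log2 fold change -0.45 ± 0.11, adjusted p = 0.0242), and the adjusted p was 0.168 without vanoxerine 1, 0.155 without vanoxerine 2, 0.0690 with a transcript length offset and 0.415 on log2(TPM + 1). Adamts15 and Adamts20, both under 1 CPM, were not called (adjusted p = 0.306 and 0.515), and that of Adamts20 was 0.0447 without saline 1.

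The 6 other Adamts genes tested were Adamts6, Adamts7, Adamts10, Adamts12, Adamts13 and Adamts16, and edgeR and limma-voom called 0 of them. Adamts10, Adamts12 and Adamts16 had an unadjusted p under 0.05 in edgeR, and DESeq2 called Adamts10. Adamts10, whose product is bound up with fibrillin microfibrils, had 29.8 and 25.6 CPM in vanoxerine tumours, against 23.2 and 21.7 CPM in saline tumours (adjusted p = 0.0582, and 0.00272 without saline 1 or 0.0138 without saline 2). Only 23.2% of its reads lay in protein-coding transcripts, and on those alone its log2 fold change was -0.26, against 0.30 on all transcripts. Adamts13, which cuts von Willebrand factor, had 0.188 and 0.0607 CPM in vanoxerine tumours, against 0.576 and 0.168 CPM in saline tumours, so the groups overlapped (adjusted p = 0.268, and 0.0494 without saline 2). Adamts12 had 0.231 and 0.471 CPM in vanoxerine tumours, against 0.968 and 0.926 CPM in saline tumours (adjusted p = 0.0842, and 0.0412 without saline 2). The levels of Adamts6 and Adamts7 differed little, with log2 fold changes of 0.08 ± 0.10 and -0.10 ± 0.13. Adamts16 had the widest fold change of the members but few reads, with 0.0289 and 0.0607 CPM in vanoxerine tumours, against 0.183 and 0.547 CPM in saline tumours (log2 fold change -2.98 ± 1.02, adjusted p = 0.0664, and 0.0123 without saline 1).

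Levels can be compared between genes only per length, and on the TPM scale the order of the members differed between the groups. Adam8 led in vanoxerine tumours with a mean of 266 TPM, against a mean of 79.5 TPM in saline tumours, where Timp1, Mmp11 and Adam15 were ahead of it. Timp2, Timp1, Adam15, Mmp12 and Mmp14 followed it in vanoxerine tumours with means of 120, 108, 92.4, 88.5 and 84.3 TPM, of which Adam15, Mmp12 and Mmp14 overlapped each other. Saline tumours were led by Timp1 with a mean of 151 TPM, then by Mmp11 with 95.6 and Adam15 with 93.0, and the libraries of Adam8 and Timp2 overlapped at means of 79.5 and 76.6 TPM. Mmp11 averaged 41.9 TPM in vanoxerine tumours, below 8 other members, against 95.6 TPM in saline tumours, below Timp1 alone. This order counts all transcripts. On protein-coding transcripts alone Mmp11 had 32.3 and 33.6 TPM in saline tumours, below Mmp14 with 42.8 and 44.8 TPM. Adam8 had 52.1 and 52.5 TPM on such transcripts in saline tumours, above Mmp11 and above Adam15, which had 23.2 and 22.3 TPM. In vanoxerine tumours the coding transcripts of Adam15 had 40.4 and 40.6 TPM, below Mmp13 with 63.0 and 64.8 TPM.

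**Figure D3:**
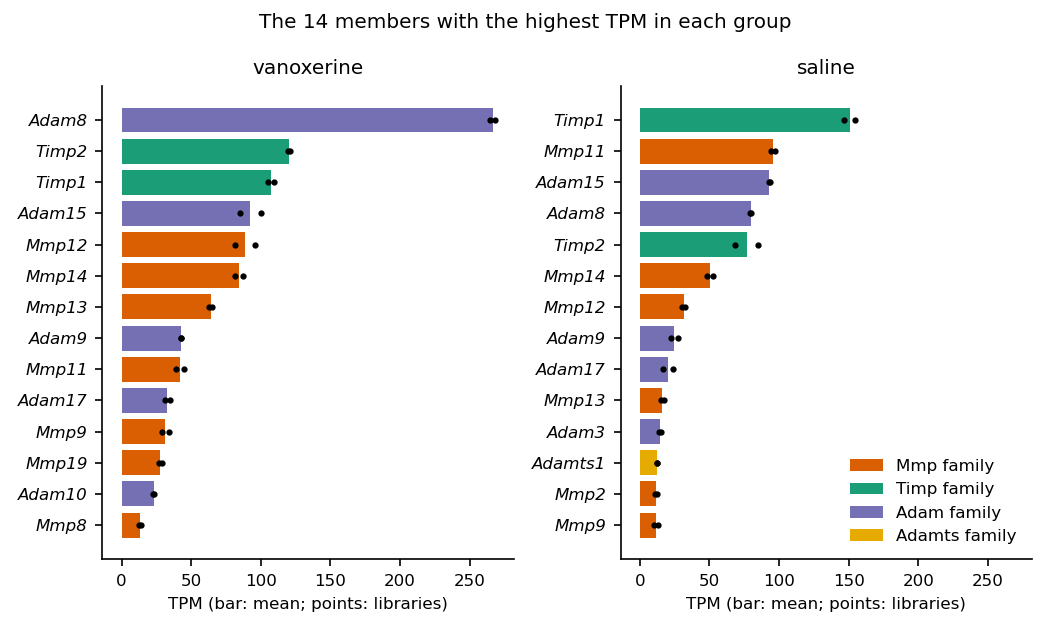
Mean TPM (bars, starting at 0) and the 2 libraries (points) of the 14 members with the highest TPM in each group, vanoxerine in the left panel and saline in the right panel, coloured by family. Adam8 stands first on the left at a mean of 266 TPM, and Timp1 stands first on the right at 151 TPM.

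Summed over each family, the Mmp genes reached 354 and 373 TPM in vanoxerine tumours, against 232 and 243 TPM in saline tumours. The Adam genes reached 468 and 476 TPM in vanoxerine tumours, against 256 and 241 TPM in saline tumours. The Timp sums were 232 and 226 TPM in vanoxerine tumours, against 217 and 242 TPM in saline tumours, and these overlapped. Timp RNA per Mmp RNA was thus 0.656 and 0.605 in vanoxerine tumours, against 0.936 and 0.995 in saline tumours, as a ratio of summed TPM. All transcripts count in this ratio, and it was not computed on protein-coding transcripts alone. These made up 100% of Timp1 and Timp2 TPM in every library. In saline tumours they made up 34.3% and 34.5% of Mmp11 TPM, and 48.6% and 58.1% of Mmp12 TPM. The Adamts sums were the smallest, at 40.9 and 40.8 TPM in vanoxerine tumours, against 36.6 and 35.1 TPM in saline tumours. A few genes carried these sums. Adam8 alone held 57.3% and 55.6% of the Adam TPM in vanoxerine tumours, against 30.9% and 33.1% in saline tumours. Mmp11 held 11.1% and 12.0% of the Mmp TPM in vanoxerine tumours, against 40.6% and 40.0% in saline tumours. Mmp13 held 17.8% and 17.4% of the Mmp TPM in vanoxerine tumours, against 6.53% and 7.08% in saline tumours. These shares count all transcripts. In saline tumours 62.2% and 63.5% of the Mmp11 TPM came from 1 transcript annotated as subject to nonsense-mediated decay. With 2 libraries a group, a two-sided exact permutation test cannot go below p = 0.333, so these sums and ratios are given without a test.

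The 10 Mmp genes of the chromosome 9 group lie within 427 kb (chr9:7272514-7699585), in the order Mmp13, Mmp12, Mmp1b, Mmp3, Mmp1a, Mmp10, Mmp8, Mmp27, Mmp20 and Mmp7. Of the 6 tested, Mmp13, Mmp12 and Mmp27 rose, Mmp3 fell, and Mmp10 and Mmp8 were not called. The AP-1 letters printed above were present before genes that rose (Mmp13, and Mmp12 at its second start), before 1 that fell (Mmp3) and before 1 with no call (Mmp10). They were absent from the printed stretch of Mmp27, which rose. The levels spanned from 0 reads for Mmp1a and Mmp7 to over 100 CPM for Mmp13 and Mmp12 in vanoxerine tumours, and Mmp20 and Mmp1b had 1 and 2 reads in all. Mmp8 and Mmp27, only 2911 bases apart, differed in call, and their log2 fold changes were 0.17 and 0.85.

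**Figure D4:**
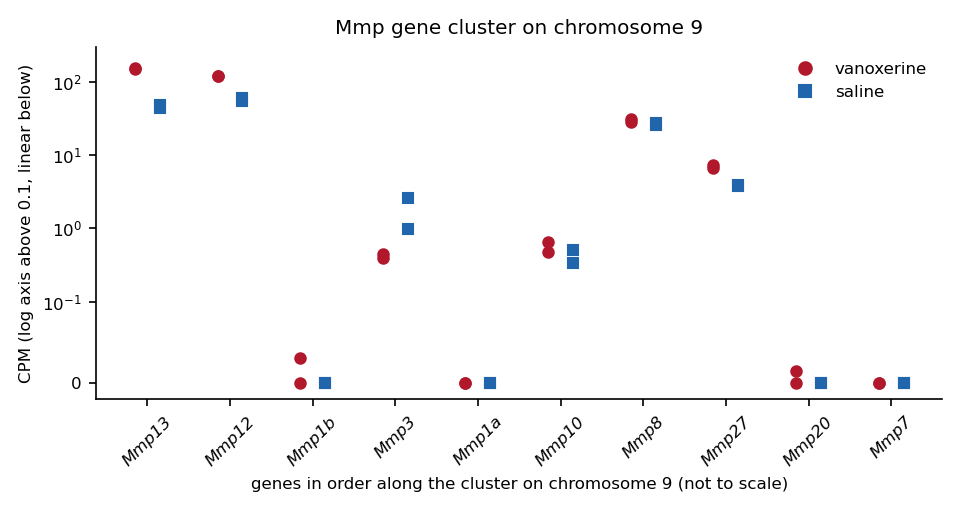
CPM in each library (y axis, log scale above 0.1 and linear below) of the 10 Mmp genes of the chromosome 9 group in their order along the chromosome, not to scale, with circles for vanoxerine and squares for saline. Circles lie above squares for Mmp13, Mmp12 and Mmp27, and by less for Mmp8, which was not called. They lie below the squares for Mmp3, and both overlap for Mmp10.

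Genes that act on or beside these families were read from 4 lists with 59 members, of which 51 were tested and 27 called (14 higher and 13 lower, against 14 and 4 on log2(TPM + 1) and 9 and 7 without vanoxerine 2). Over all genes tested 36.9% were called, 21.0% higher and 15.9% lower, and the shares called in the 4 lists lay between 41.7% (ADAMTS-like and related) and 66.7% (other inhibitors and cofactors). Of 17 tested genes of MMP activation and the plasminogen system, 5 rose and 3 fell. Plau, the urokinase that turns plasminogen into plasmin, had 186 and 195 CPM in vanoxerine tumours, against 52.8 and 49.9 CPM in saline tumours. It rose by a log2 fold change of 1.89 ± 0.06 (adjusted p = 1.42e-05, edgeR). The proprotein convertases Furin and Pcsk7, of which furin cuts the Mmp14, Adam10 and Adam17 precursors, rose by log2 fold changes of 0.78 ± 0.05 and 0.51 ± 0.08. Pcsk6 fell by a log2 fold change of -3.02 ± 0.52. The remaining calls of this list were Serpinb2 and Serpine2, higher by 1.15 and 0.46, and Plat and Pcsk5, at -0.50 and -2.87 on the log2 scale. Plaur, the urokinase receptor, was not called (adjusted p = 0.218).

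Of 12 tested other inhibitors and cofactors, 4 rose and 4 fell. Lrp1, an endocytic receptor that takes up MMPs and TIMPs, had 308 and 320 CPM in vanoxerine tumours, against 123 and 122 CPM in saline tumours. Its log2 fold change was 1.35 ± 0.05 (adjusted p = 1.97e-05, edgeR). Thbs1, Itgb3 and Cd44, the last a cell-surface anchor of Mmp9, rose by log2 fold changes of 0.95, 0.95 and 0.71. Lcn2, whose human product binds MMP9, fell with a log2 fold change of -1.65 ± 0.11 (adjusted p = 1.98e-04). Reck, a membrane-anchored MMP inhibitor, had 2.07 and 2.09 CPM in vanoxerine tumours, against 1.47 and 1.60 CPM in saline tumours, and was not called (adjusted p = 0.247).

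The regulators of ADAM10 and ADAM17 had 4 genes higher and 2 lower of 10 tested. Rhbdf2, encoding iRhom2, which carries ADAM17 to the cell surface, had 83.4 and 87.2 CPM in vanoxerine tumours, against 47.7 and 49.3 CPM in saline tumours. Its log2 fold change was 0.81 ± 0.05 (adjusted p = 1.64e-04, edgeR), while that of Rhbdf1 (iRhom1) was -0.48 ± 0.06 (adjusted p = 0.00229). Of the tetraspanins that partner with ADAM10, Tspan14 had a log2 fold change of 0.76 ± 0.06 and Tspan15 one of -0.64 ± 0.13. Frmd8, which stabilises iRhoms, rose by 0.33 ± 0.06 on the log2 scale. Of 12 tested ADAMTS-like and related genes 1 rose and 4 fell. Versican (Vcan), a substrate of Adamts1, Adamts4, Adamts5 and Adamts9, had 31.7 and 35.0 CPM in vanoxerine tumours, against 25.7 and 24.3 CPM in saline tumours, with a log2 fold change of 0.42 ± 0.08 (adjusted p = 0.0100). Adamtsl5, Fbln1 and Adamtsl3 had log2 fold changes of -0.71, -2.58 and -2.02. Fbln1 encodes fibulin 1, a cofactor of Adamts1.

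The authors' deposited table of the same contrast holds 50 of the members, 43 of them with an adjusted p, and 12 were higher and 12 lower there at an adjusted p under 0.05. Which libraries entered it is not stated, and neither are the options behind its log2 fold changes. These need not be the same measure as those of edgeR given above. For Mmp19 the authors' deposited table gives a log2 fold change of 2.59, for Mmp13 1.73, for Adam8 1.51, for Mmp11 -1.41 and for Mmp2 -1.90. In the authors' deposited table Adam15 has a log2 fold change of -0.23 (adjusted p = 0.0939) and Adam3 one of -0.94 (adjusted p = 6.44e-04), so that both differ in call from the count test given above. Adam18 (adjusted p = 0.0208, lower), Adam33 (0.0596) and Adamts1 (0.168) in the authors' deposited table also differ in call from that test, and the other members with an adjusted p in both do not.

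**Figure D5:**
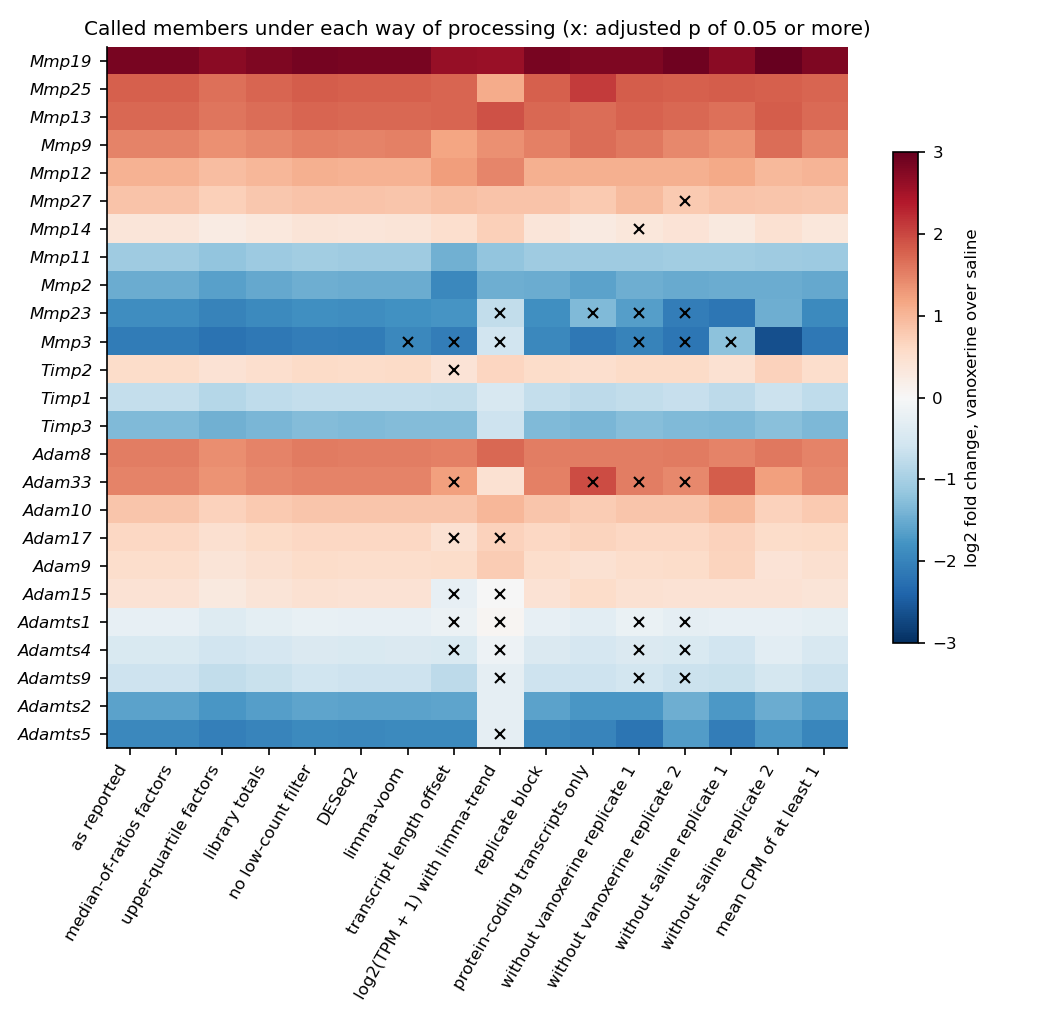
Log2 fold change (colour, vanoxerine over saline) of the 25 called members (down) as reported and under 15 other ways of processing (across), with a cross where the adjusted p was 0.05 or more. Mmp19, Mmp25, Mmp13, Mmp9, Mmp12, Mmp11, Mmp2, Timp1, Timp3, Adam8, Adam10, Adam9 and Adamts2 carry no cross, and Mmp3 carries 6; on log2(TPM + 1), where the median of all genes is 0.13, Adam15 is at -0.01 and Adamts1 at 0.06.

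The plot of the fold changes under each way of processing shows 13 members called in all 15 alternatives, 8 of them higher and 5 lower. Of these, Mmp19, Mmp13, Mmp9, Mmp25 and Adam8 had the largest rises, and Mmp2, Timp3, Adamts2 and Mmp11 fell at least 2-fold.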

How the data were processed

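RNA of 2 vanoxerine and 2 saline MC38 tumours was sequenced after TruSeq RNA v2 library preparation, per the labels' protocols. The submitters' processing notes name fastp, Salmon 1.3.0, DESeq2 and the build GRCm38; the sources used here do not state the annotation release, strand setting or other options. The authors deposited Salmon's expected count (an estimated count of reads) and TPM of 140992 transcripts per library. Per the file headers, the authors' comparison table gives a base mean signal, log2 fold change and its SE, and p-value; 4 further columns, FPKM by their names, match no sample and were not used.

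Transcripts were assigned to genes with GENCODE M21 on GRCm38 (139791 matched), and estimated counts were summed per gene and rounded. These totals (67289273 to 75748162 reads) limit only the counting error, and Salmon divides reads shared by near-identical genes by estimate. edgeR 4.0.16 (R 4.3.3) tested 18758 genes with TMM, minimum count 10, minimum total 15 and no block. Benjamini-Hochberg adjustment was over all genes tested, SEs come from the F statistic, and the script was tested on simulated data. CPM was computed with TMM factors. Full values are given for members called with 0.5 or more of log2 change, and for Timp1 to Timp3, Mmp2, Mmp9, Mmp14, Adam10 and Adam17; the 4 proteolysis lists are named by smallest p, and 1 result on them is not reported here. Adamts1, Adamts4, Adam15 and members without a call are named beyond that rule. So are Plaur, Lcn2, Tspan15, Reck, Serpinb2, Serpine2, Plat and Pcsk5, chosen after their values were seen. Members, lists and markers were chosen with earlier results of these data known. Alternatives were other scalings and filters, DESeq2 1.42.0, limma 3.58.1, a transcript length offset, log2(TPM + 1), a replicate block, protein-coding transcripts (added after seeing the data) and leaving out each library.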

Additional observations from a re-analysis of the deposited data

How the results depend on the processing

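With 2 libraries a group, precision rests on few degrees of freedom, and in each fit that leaves 1 library out the lone library is taken to vary as the other group does. The median log2 fold change of all genes was 0.13 on log2(TPM + 1) and -0.14 with upper-quartile factors, beside -0.01 as reported, and log2 fold changes under these settings should be read relative to it. Of the 25 calls, 13 were made under all 15 alternatives. The members called lower numbered 6 on log2(TPM + 1), where 13 were higher (68.4% of calls higher, beside 56.0% as reported). Leaving out 1 library gave 18 to 32 called members, 12 to 18 higher and 6 to 14 lower, and the low counts of 6 lower came without vanoxerine 1 or vanoxerine 2. For the other proteolysis genes, leaving out 1 library gave 16 to 34 called, 9 to 17 higher and 7 to 17 lower, with the lowest counts without vanoxerine 2; those called lower numbered 8 with a transcript length offset and 4 on log2(TPM + 1) (14 higher, 77.8% of calls, beside 51.9% as reported). Upper-quartile factors and library totals each gave 13 higher and 17 lower of them (43.3% higher). An adjusted p under 0.1 gave 31 members (17 higher and 14 lower).

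The following log2 fold changes lay on the other side of 0. With a transcript length offset Adam15 was -0.25. On log2(TPM + 1) Adam15 was -0.0136, Adam19 0.13 and Adamts1 0.0594, where the all-gene median was 0.13. Adamts1 and Adam15 lay below that median and Adam19 was level with it, but these offsets were not tested. There limma called neither Adamts1 (adjusted p = 0.624) nor Adam15 (0.932). With upper-quartile factors Adam11 was -0.0014, Adam4 -0.0245 and Adamts6 -0.0564, all above the all-gene median there, though these offsets were not tested. On protein-coding transcripts alone Adamts7 was 0.0025 and Adamts10 -0.26. Over the fits without 1 library, Adam3 ranged between -0.5558 and 0.031 (turned without vanoxerine 1), Adam4 between -0.3916 and 0.4979 (turned without vanoxerine 2, and at -0.15 without saline 2) and Adam11 between -0.1103 and 0.4389 (turned without saline 1). The cause of these changes of side was not tested. Adam15 and Adamts1 were called as reported, and the rest were not.

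Same-numbered libraries of the groups do not deviate together (correlation -0.0390 over 9871 genes), so their numbers are not taken as pairs. A fit with the replicate number as a block called 27 members (16 higher and 11 lower), and 27 other proteolysis genes (14 higher and 13 lower). Among members with no call as reported, Adam1a (adjusted p = 0.0489) and Adamts10 (0.0435) passed with the block.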
